A study of Mus musculus with 8 samples.

Results

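The step from the neonatal to the adult heart was followed in cultured cardiac fibroblasts, by comparing mice of 3 months with pups of postnatal day 1 to 3 across all expressed genes. The comparison rests on 4 of the 8 RNA sequencing libraries of a series that covers 4 ages, 2 libraries from neonatal pups and 2 from mice of 3 months. All are labelled as wild-type primary cells of the heart kept in culture for 3 days, and the labels give no strain, sex, or passage. Nor do they say if hearts were pooled, or if each replicate is its own animal or culture. The p-values therefore reflect just the spread between libraries of the same age, estimated over all 8 libraries, and that spread may be technical. The question behind the series is why older fibroblasts are harder to convert directly into cells that resemble cardiomyocytes.

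Cardiac fibroblasts build and remodel the collagen-rich matrix that holds heart muscle together, and they signal to muscle, vessel and immune cells through secreted factors. Around birth the heart still grows by cell division and its matrix is rich in fibronectin and periostin, while the adult heart carries a more stable network of collagen fibres. On stiff plastic, fibroblasts of any age tend to become activated and to acquire a contractile actin cytoskeleton, so levels in culture are those of plated cells and not of cells in the tissue.

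Library totals ran from 17336346 to 22311330 counts, 23113 to 23638 genes had at least 1 count, and 16466 genes had enough counts to be tested with edgeR's quasi-likelihood test with Benjamini-Hochberg adjustment. Levels are CPM, read counts relative to the library total scaled by the TMM method, and differences are log2 fold changes of 3 months over neonatal ± SE from the fit, called at an adjusted p of 0.05. Libraries of 1 age were close to each other, with a chi-square per degree of freedom of 2.44 and 2.49 within an age and of 175 to 201 between the ages. At 3 months 28.0% of the tested genes were higher and 24.4% lower, 52.4% in all, and 18.8% passed with a difference of at least 2-fold (9.26% higher and 9.57% lower). Counts of list members below are to be read against the shares of 28.0 and 24.4%. With 2 libraries an age, 12306 tested genes (74.7%) had no overlap between the ages, so a lack of overlap is the usual case. With upper-quartile scaling the split of calls turned from 4608 higher and 4013 lower to 3759 higher and 4974 lower, with the median of all genes at -0.07 in place of 0.01.

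**Figure D1:**
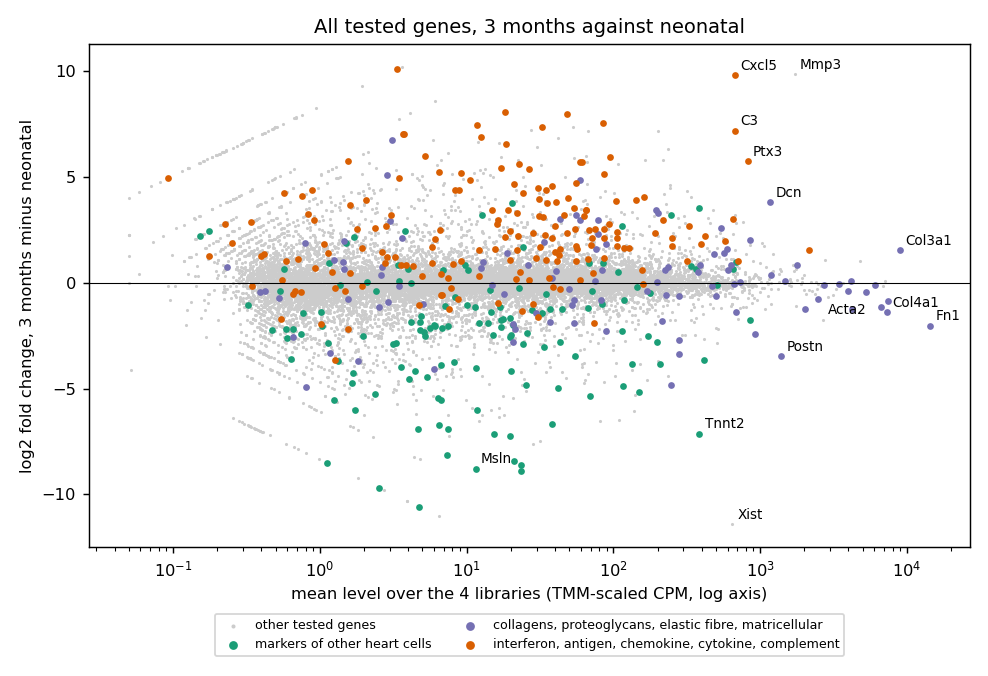
Each point is 1 tested gene, with its mean level over the 4 libraries (TMM-scaled CPM, log axis) against its log2 fold change of 3 months over neonatal, coloured by gene list. Markers of other heart cells lie mostly below 0, interferon, chemokine and complement genes mostly above it, and the most abundant matrix genes, such as Fn1, Col4a1 and Col3a1, spread to both sides.

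Transcripts of other heart cells were described first, since they set how far a difference can be read as one of fibroblasts. Of 135 tested genes on the marker lists of other cells, 101 were lower and 22 higher at 3 months (91.1% called, against 52.4% of all tested genes), with a median log2 fold change of -2.06 against 0.01 over all tested genes. In bulk RNA, fewer cells of a type and less RNA per cell cannot be told apart. The lists held a small share of the reads: their summed level was 9974 CPM in neonatal and 6440 CPM in 3-month libraries, and they carried 3.7% of the CPM lost and 1.38% of the CPM gained over all tested genes. Without these genes and without chromosomes X and Y, 8187 of 15777 genes passed (51.9%), 4419 higher and 3768 lower, of which 1462 and 1419 differed at least 2-fold. Leaving out listed markers does not remove the unlisted transcripts of those cells, whose part in these calls was not tested.

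The cardiomyocyte list, genes of the sarcomere and of cardiac peptides, summed to 2667 and 2581 CPM in the neonatal libraries and to 449 and 430 CPM at 3 months, with 28 of 29 members lower. Ankrd1, a stress-responsive gene of heart muscle that stretched fibroblasts also express, was the largest single part, at 1307 and 1319.9 CPM in neonatal and 398 and 372 CPM in 3-month cells. Without it, a choice made after seeing the data, the sum went from 1360 and 1261 CPM to 50.7 and 58.0 CPM, or 4.15% of the neonatal level. Tnnt2, the cardiac troponin T gene, held most of that remainder in neonatal cells, at 793 and 734 CPM, and was at 5.08 and 5.84 CPM at 3 months. Hspb7, a small heat shock protein gene of muscle, fell less, from 63.4 and 61.8 to 25.6 and 27.9 CPM, and stood above Tnnt2 at 3 months. Scaled to exonic length Tnnt2 stood at 102 and 94.7 CPM per kilobase in neonatal cells, above the other sarcomere genes Actc1 (46.9 and 46.3), Myh6 (21.2 and 19), Myl7 (15.9 and 16.1) and Ttn (0.419 and 0.424). At 3 months Myl7, an atrial myosin light chain, had no count.

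Endothelial markers summed to 3102 and 3181 CPM in neonatal and 923 and 1028 CPM in 3-month libraries, with 18 of 24 lower and 3 higher. Endoglin (Eng), a TGF-beta co-receptor shared with fibroblasts, did not pass the test and held 488 and 491 CPM of the 3-month sum, while the adhesion genes Cdh5 (345 and 353 CPM to 40.9 and 60.4 CPM) and Pecam1 (189 and 189 CPM to 32.8 and 44.4 CPM) fell but stayed detectable. The mesothelial and epicardial list was split. Its sum was higher at 3 months, from 752 and 756 CPM to 1424 and 1418 CPM, yet 15 of its 21 members were lower and 4 higher. Aldh1a2, Sulf1, Efemp1 and Tbx18, which fibroblasts are known to express too, were left out after seeing the data. Without them the sum fell from 301 and 306 CPM to 29.5 and 32.5 CPM. The surface markers Msln (ratio of neonatal to 3-month level 497, 95% counting interval 137 to 4114) and Lrrn4 (-8.90 ± 0.24) fell, and Muc16, which had no count at 3 months, was at least 32.9-fold lower.

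Macrophage markers summed to 585 and 583 CPM in neonatal and 244 and 279 CPM in 3-month cells (18 of 22 lower, 2 higher). Smooth muscle and pericyte markers summed to 1833 and 1848 CPM in neonatal and 1268 and 1347 CPM in 3-month cells. Without Pdgfrb, which is also on the fibroblast list and was left out after seeing the data, they went from 1334 and 1337 to 481 and 541 CPM. Lymphocyte and granulocyte markers stayed at or below 3.56 CPM and erythroid genes at or below 0.527 CPM in each library. Xist, which coats and silences the inactive X of females, had 1276 and 1287 CPM in neonatal libraries and 0.449 and 0.479 CPM at 3 months, and 4 Y-linked genes had 15 to 21.9% of their 3-month level in neonatal cells, so the sex mix of the libraries differed with age. How far cell mix and sex enter the differences below was not tested.

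**Figure D2:**
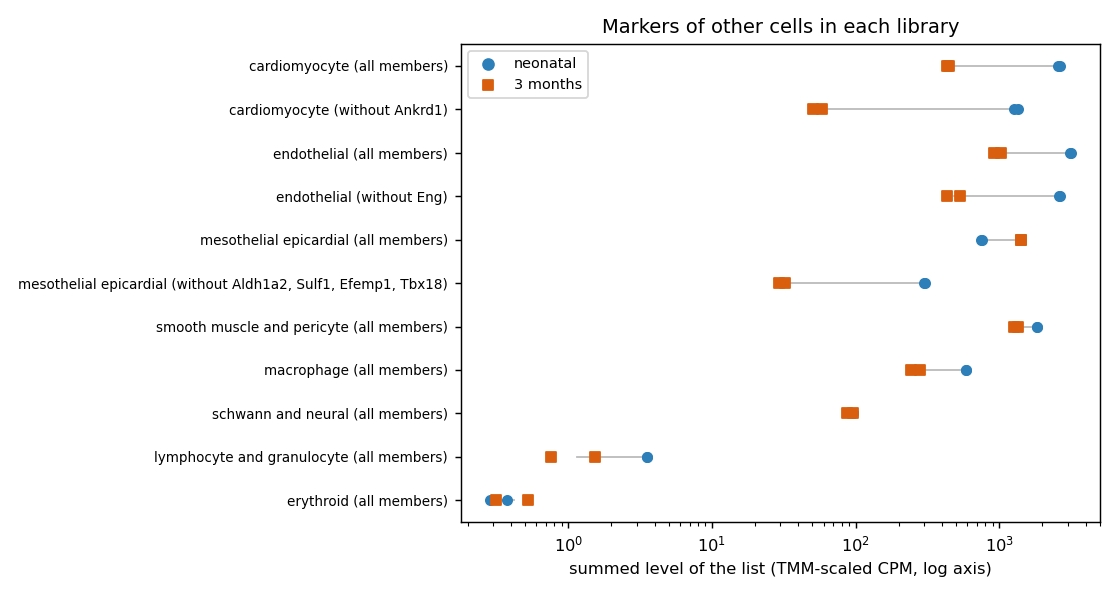
The summed level of marker lists of other cells (TMM-scaled CPM, log axis) is shown for each of the 2 neonatal and 2 3-month libraries, with all members or without those that fibroblasts also express. The members left out were chosen after seeing the data. Cardiomyocyte and endothelial sums are lower at 3 months in both libraries, and the mesothelial sum changes side when Aldh1a2, Sulf1, Efemp1 and Tbx18 are left out.

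Genes that mark fibroblasts were mostly higher at 3 months. Of 32 such genes, all tested, 25 rose, 6 fell and 1 did not pass, with a median of 1.38. Pdgfra, the growth factor receptor used to sort cardiac fibroblasts, went from 174 and 196 CPM in neonatal to 1396 and 1298 CPM in 3-month libraries (2.87 ± 0.05, adjusted p = 3.18e-28). Tcf21, a transcription factor of the fibroblast lineage, went from 219 and 229 to 443 and 461 CPM (1.01 ± 0.05). In both genes the 3-month libraries lie above the neonatal ones.

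Pdgfra, Tcf21, Ddr2 and Col1a2 were present in every library of both ages, whereas other members were low in neonatal cells. Ly6a, which encodes the surface antigen Sca-1, was at 3.37 and 1.99 CPM in neonatal and 421 and 375 CPM in 3-month libraries (7.18 ± 0.10, adjusted p = 4.23e-30). The scavenger receptor gene Scara5 (5.18 ± 0.17), the plasminogen-binding lectin gene Clec3b (6.63 ± 0.30), Pi16 (4.71 ± 0.22) and Dpp4 (2.31 ± 0.09) rose as well, all from under 10 CPM. Cd34, at 96.9 and 96.8 CPM in neonatal and 101 and 111 CPM in 3-month libraries (0.13 ± 0.05, adjusted p = 0.0457), and Dpt (0.78 ± 0.06) differed less. Cd34 did not pass in edgeR with DESeq2 size factors (adjusted p = 0.0945) or upper-quartile scaling (0.486). Nor did it pass in DESeq2 (0.2) or limma-voom (0.051). Its log2 fold change was 0.106, 0.0994 and 0.0599 without the first neonatal, the second neonatal and the second 3-month library. Fap, a membrane protease of activated fibroblasts, rose from 0.984 and 0.852 to 29.3 and 29.4 CPM (4.98 ± 0.15). The fall that stood out was in Thy1, a surface glycoprotein used to isolate fibroblasts, from 261 and 264 to 42.2 and 40.2 CPM (-2.67 ± 0.05). The filament gene Vim fell little (-0.14 ± 0.04, adjusted p = 0.077 without the first 3-month library), and the collagen receptor genes were at 0.77 ± 0.04 for Ddr2, which rose, and at 0.08 ± 0.05 for Ddr1, which did not pass.

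Matrix genes took the largest part of the lost reads among the gene groups summed. The 117 tested genes of the collagen, proteoglycan, elastic fibre, matricellular and basement membrane lists summed to 124760 CPM in neonatal and 94798 CPM in 3-month libraries, and carried 31.1% of the CPM lost and 11.5% of the CPM gained over all tested genes. Fibronectin alone (Fn1), the glycoprotein that bridges integrins and collagen, went from 22856 and 23578 CPM in neonatal to 5651 and 5761 CPM in 3-month libraries (-2.02 ± 0.03, adjusted p = 1.24e-28). Both 3-month libraries lie far below both neonatal ones.

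Among fibrillar collagens, the load-bearing fibres of the heart, 3 of 11 tested genes rose and 7 fell. Col3a1, which forms thin and compliant fibrils, went from 4567 and 4631 CPM in neonatal to 13341 and 13562 CPM in 3-month libraries (1.55 ± 0.04, adjusted p = 8.13e-25), the largest gain in CPM of all called genes with at least a 2-fold change. The type I chains went the other way and unequally, Col1a1 from 9690.1 and 9461 to 5114 and 5458 CPM (-0.86 ± 0.04) and Col1a2 from 6283 and 6334 to 5775 and 5832 CPM (-0.12 ± 0.03). Counted per kilobase of exonic length, the ratio of Col3a1 to Col1a1 was 0.315 and 0.327 in neonatal and 1.74 and 1.66 in 3-month libraries. Col3a1 thus went from 14.1 and 14.5% to 43.8 and 43.1% of all fibrillar collagen, and Col1a1 from 44.7 and 44.3% to 25.1 and 25.9%.

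The minor fibrillar chains that start and thin collagen fibrils were split. Col5a1 fell from 2887 and 2819 to 1168 and 1246 CPM (-1.24 ± 0.04) and Col11a1 from 493 and 522 to 49.5 and 48.3 CPM (-3.37 ± 0.06), whereas Col5a3 rose (1.93 ± 0.09). Col24a1 rose from under 1 CPM (1.98 ± 0.34) and Col27a1 fell (-1.93 ± 0.12).

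Of 10 network and basement membrane collagens tested 5 fell and 4 rose. Col4a1 went from 10756 and 10485 CPM in neonatal to 4015 and 4143 CPM in 3-month libraries (-1.38 ± 0.03), and its partner chain Col4a2 from 6029 and 5939.6 to 2470.3 and 2538 CPM (-1.26 ± 0.03). The less abundant chains Col4a4 (0.86 ± 0.10) and Col4a6 (0.54 ± 0.07) rose, Col4a5 fell (-0.16 ± 0.04) and Col4a3 did not pass (-0.12 ± 0.15). Endothelial cells also make type IV collagen and their markers fell too, a part that was not tested. The endostatin-bearing collagens Col15a1 (-2.68 ± 0.06) and Col18a1 (-2.28 ± 0.07) fell as well. Col8a1, a short-chain network collagen, rose from 1264 and 1283 to 2269 and 2338 CPM (0.85 ± 0.04).

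Of 18 other collagens tested, 6 rose (33.3%) and 8 fell (44.4%). Type VI collagen, which forms beaded filaments around cells, changed its balance, with Col6a1 (0.58 ± 0.04) and Col6a2 (0.49 ± 0.04) rising and Col6a3 falling (-0.62 ± 0.04). Col7a1, the anchoring fibril chain, fell from 35.1 and 37.7 to 4.94 and 5.55 CPM (-2.79 ± 0.13), and Col23a1, a membrane collagen, fell to under 1 CPM (-4.06 ± 0.23). Col12a1 rose a little (0.35 ± 0.05) and Col14a1 did not pass (-0.08 ± 0.06).

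**Figure D3:**
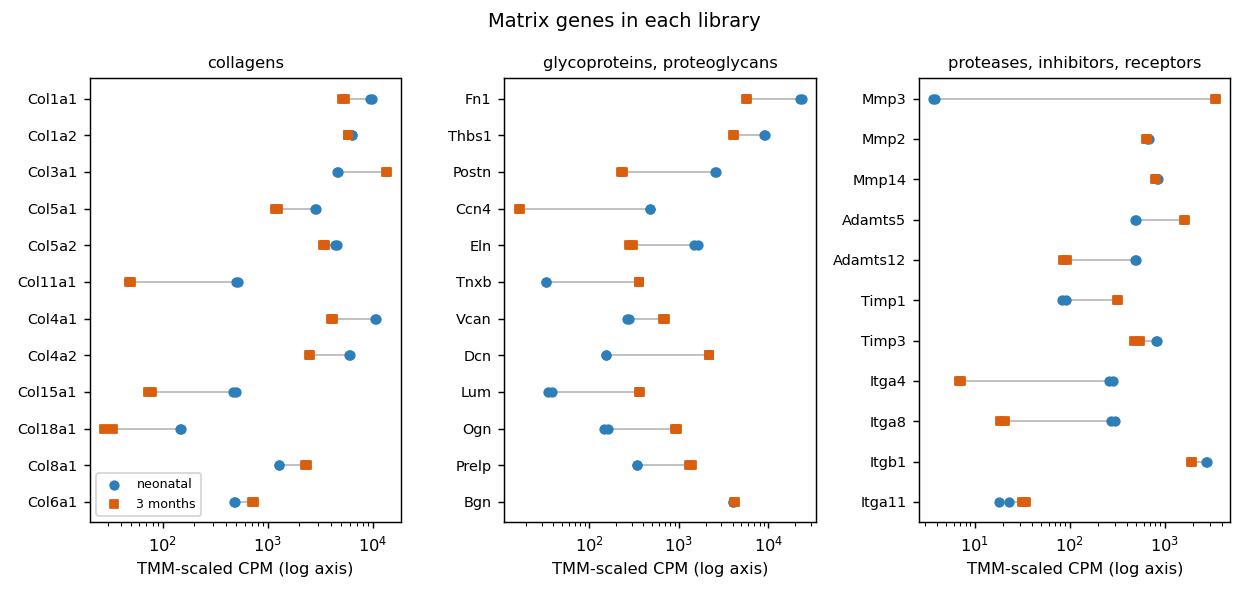
Levels of matrix genes (TMM-scaled CPM, log axis) in the 2 neonatal (circles) and 2 3-month libraries (squares), joined by a line between the group means. Fn1, Postn, Ccn4, Eln, Col11a1 and Itga4 lie to the left at 3 months, Dcn, Lum, Tnxb, Col3a1 and Mmp3 to the right, and Mmp2, Mmp14 and Bgn hardly move.

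Genes that fold, modify and crosslink collagen were mostly higher. Of 32 tested, 21 rose, 7 fell and 4 did not pass, with a median of 0.45. Prolyl 4-hydroxylases, which stabilise the triple helix, rose in P4ha1 (0.63 ± 0.04), P4ha2 (1.35 ± 0.06) and the shared subunit P4hb (0.63 ± 0.04), while P4ha3 fell (-1.43 ± 0.09). The collagen chaperone Serpinh1 was at 2387 and 2379 CPM in neonatal and 2401 and 2477 CPM in 3-month libraries and did not pass (adjusted p = 0.456).

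Genes that trim procollagen ends moved in both directions. Pcolce2, an enhancer of the C-terminal protease, rose from 8.39 and 8.35 to 166 and 167 CPM (4.31 ± 0.06), and Pcolce (0.77 ± 0.04), Bmp1 (0.60 ± 0.05) and the N-terminal protease Adamts2 (1.27 ± 0.05) rose too. Tll1, a relative of Bmp1, fell from 13.5 and 16.2 to 0.809 and 0.67 CPM (-4.31 ± 0.22) and Adamts14, a relative of Adamts2, fell (-1.86 ± 0.11). Of the lysyl oxidases, which form crosslinks, Loxl1 (0.83 ± 0.05) and Loxl3 (0.99 ± 0.05) rose, Loxl2 fell from 999 and 973 to 370.1 and 389 CPM (-1.38 ± 0.05), and Lox did not pass (-0.05 ± 0.04).

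Small leucine-rich proteoglycans, which bind collagen fibrils and set their diameter, rose in 10 of 14 tested genes and fell in 1. Decorin (Dcn) went from 154 and 155 CPM in neonatal to 2162 and 2201 CPM in 3-month libraries (3.82 ± 0.05, adjusted p = 4.76e-32). Lumican (Lum) went from 34.7 and 38.6 to 366 and 363 CPM (3.32 ± 0.05), osteoglycin (Ogn) from 163 and 146 to 916 and 949 CPM (2.59 ± 0.05) and Prelp from 343 and 339.9 to 1309.7 and 1421 CPM (2.00 ± 0.05). For each of these the 2 libraries of an age are close and the ages far apart. Biglycan (Bgn) did not pass, at 4049.7 and 4053 against 4162 and 4292 CPM, and fibromodulin (Fmod) fell (-1.04 ± 0.08). Per kilobase, biglycan therefore held 70.9 and 71.9% of this family in neonatal and 33.6 and 33.4% in 3-month cells, and decorin 2.83 and 2.87% against 18.3 and 17.9%.

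**Figure D4:**
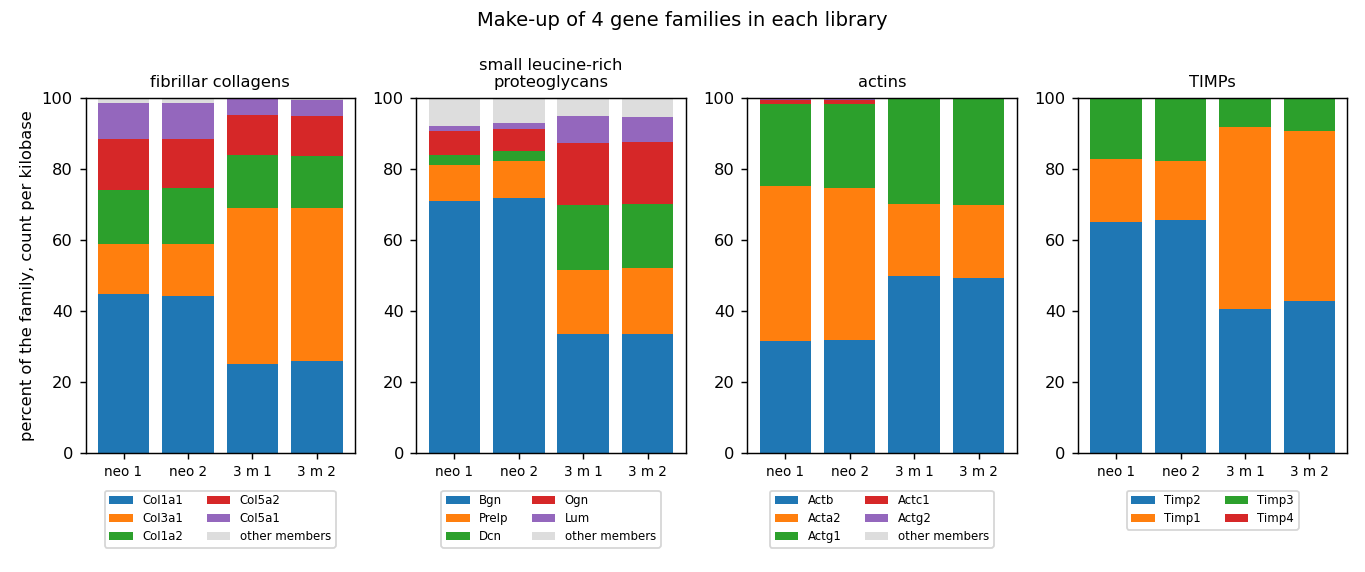
Stacked bars give the share of each member in the summed count per kilobase of 4 gene families, in percent, for the 2 neonatal (neo) and 2 3-month (3 m) libraries. Col3a1, Dcn and Timp1 take larger shares at 3 months, and Col1a1, Bgn and Acta2 smaller ones.

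Elastic fibre genes moved in both directions, 7 of 19 higher and 9 lower, against 28.0 and 24.4% of all tested genes. Elastin (Eln) fell from 1499 and 1625 to 283 and 309.8 CPM (-2.40 ± 0.06) and fibrillin-2 (Fbn2), the fibrillin of developing tissue, from 81.3 and 88.6 to 21.9 and 24.1 CPM (-1.88 ± 0.08). Fibrillin-1 (Fbn1) was at -0.08 ± 0.04 and did not pass. The microfibril gene Mfap5 (2.95 ± 0.06), the emilins Emilin1 (1.38 ± 0.04) and Emilin2 (4.84 ± 0.08) and the fibulin Efemp1 (2.66 ± 0.06) rose. Fbln5, a fibulin that guides elastin assembly, did not pass (0.03 ± 0.05).

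Matricellular proteins sit in the matrix and tune cell behaviour. Of 31 tested genes 15 fell and 12 rose, against 24.4 and 28.0% of all tested genes. Periostin (Postn), abundant in the developing and injured heart, fell from 2579 and 2527 CPM in neonatal to 238 and 225 CPM in 3-month libraries (-3.47 ± 0.05, adjusted p = 4.75e-30). Ccn4, a Wnt-induced secreted protein, fell from 477 and 476 to 16.3 and 17.1 CPM (-4.83 ± 0.06), and thrombospondin-1 (Thbs1), an activator of latent TGF-beta, from 9045 and 9295 to 4015 and 4152 CPM (-1.17 ± 0.03). The list lost 28500 CPM and gained 2139 CPM, and Fn1 and Thbs1 held most of the loss. Of the CCN family, Ccn2 fell (-0.75 ± 0.04), Ccn5 (1.61 ± 0.05) and Ccn3 (2.99 ± 0.10) rose, and Ccn1 did not pass (0.07 ± 0.04).

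Members that rose included tenascin-X (Tnxb), a glycoprotein of mature connective tissue that spaces collagen fibrils, from 32.8 and 33.3 to 356 and 359 CPM (3.44 ± 0.06). Tenascin-C (Tnc), its relative of embryonic and wounded tissue, did not pass, at 703 and 729 against 742 and 741 CPM. Versican (Vcan) rose from 263 and 279.8 to 711 and 676 CPM (1.36 ± 0.04), and Comp, a cartilage and tendon thrombospondin, from under 1 to 5.53 and 5.55 CPM (5.11 ± 0.33). Hapln1, which links versican to hyaluronan, fell from 14.1 and 12.3 to 0.359 and 0.192 CPM (-5.54 ± 0.28). Hapln1 is also on the list of endocardial and lymphatic markers. With all members that list summed to 460 and 444 CPM in neonatal and 1025 and 1000 CPM in 3-month libraries (224% of the neonatal level). Without Vcam1, Pdpn and Npr3, which were higher at 3 months and were left out after seeing the data, it was at 13.2%. The part of those cells was not tested.

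Laminins, the cross-shaped proteins of basement membranes, changed chain by chain. On their list 7 of 17 genes were higher and 9 lower, against 28.0 and 24.4% of all tested genes. The chains of muscle and fibroblast laminins Lama2 (1.05 ± 0.04), Lama4 (1.13 ± 0.04) and Lamb2 (1.16 ± 0.05) rose, while Lama5 (-2.30 ± 0.07) and Lamc3 (-6.52 ± 0.24) fell. Nidogen-2 (Nid2) rose from 462 and 442 to 1113 and 1214 CPM (1.36 ± 0.05).

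Proteases that break down matrix were led by stromelysin-1 (Mmp3), which was at 3.66 and 3.81 CPM in neonatal and 3499.8 and 3367 CPM in 3-month libraries (9.85 ± 0.07, adjusted p = 4.39e-38). Per kilobase it ranked 10140 of all genes in neonatal and 2 in 3-month cells. Of 15 metalloproteases tested 9 rose and 2 fell, with rises in the collagenases Mmp13 (2.43 ± 0.20) and Mmp8 (5.72 ± 0.13), both under 50 CPM. The gelatinase gene Mmp2 (687 and 650.2 against 645 and 643 CPM) and the membrane-bound collagenase gene Mmp14 (857 and 825 against 796 and 809.9 CPM) did not pass. Mmp16 fell (-1.66 ± 0.07).

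The ADAMTS proteases that cleave versican and aggrecan rose, Adamts5 from 482 and 503 to 1618 and 1647 CPM (1.73 ± 0.04) and Adamts1 from 319.8 and 366 to 1014 and 995 CPM (1.55 ± 0.05). Adamts12 fell from 489.8 and 502 to 92.8 and 84.9 CPM (-2.48 ± 0.05), and over the whole list 12 of 22 genes rose and 6 fell. The serine protease Htra3, which cleaves proteoglycans, rose from 2.67 and 2.95 to 88 and 92.9 CPM (5.01 ± 0.12).

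Of 15 protease inhibitors 9 rose and 6 fell, so every tested member passed. Timp1 rose from 92.5 and 83 to 324 and 318 CPM (1.87 ± 0.05), whereas Timp2 (-0.30 ± 0.04) and Timp3 (-0.66 ± 0.05) fell, and per kilobase the share of Timp1 among the TIMP genes went from 17.8 and 16.8% to 51.4 and 48.1%. Serpina3n, an acute-phase inhibitor, rose from 19.5 and 21.9 to 451 and 481 CPM (4.50 ± 0.08).

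Integrins, the receptors that tie cells to this matrix, fell in 12 of 18 tested genes and rose in 5. Itga4, which with Itgb1 binds fibronectin and VCAM1, went from 261 and 289 CPM in neonatal to 6.87 and 7.09 CPM in 3-month libraries (-5.30 ± 0.07, adjusted p = 2.23e-30). The laminin-binding Itga3 (-3.96 ± 0.10), Itga6 (-2.75 ± 0.09) and Itga7 (-2.98 ± 0.10) fell, as did Itga8 (-3.86 ± 0.07), whose chain binds fibronectin and nephronectin, and the common chain Itgb1 (-0.54 ± 0.04). The chains that bind fibrillar collagen rose in Itga11 (0.72 ± 0.10) and Itga2 (1.55 ± 0.09) and fell in Itga1 (-0.57 ± 0.05) and Itga10 (-0.63 ± 0.20, adjusted p = 0.0689 without the second neonatal and 0.0804 without the second 3-month library). Itga4, Itga6 and Itga3 are also made by endothelial, blood or mesothelial cells, whose markers fell too, and their part was not tested.

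Contractile genes fell with a single exception. Of 21 genes of smooth muscle actin filaments, all tested, 20 fell and 1 rose (Tpm4, 0.25 ± 0.04), with a median of -0.85. Smooth muscle actin (Acta2), the marker of myofibroblasts, was at 4220.2 and 4023 CPM in neonatal and 1173 and 1281 CPM in 3-month libraries (-1.75 ± 0.04). Tagln fell from 575 and 539 to 158 and 155 CPM (-1.83 ± 0.05), and the non-muscle myosin gene Myh10 from 612 and 592 to 213 and 216 CPM (-1.49 ± 0.04), with less change in Myh9 (-0.55 ± 0.04). Per kilobase Acta2 made up 43.6 and 42.9% of the actin genes in neonatal and 20.2 and 20.6% in 3-month cells, and Actb 31.6 and 31.8% against 49.9 and 49.3%.

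The defining smooth muscle genes were low in both ages. Myh11 stood at 9.47 and 10.1 CPM in neonatal and 2.29 and 2.39 CPM in 3-month libraries, or 1.25 and 1.32 CPM per kilobase in neonatal cells against 1920 and 1830 for Acta2. Cnn1 went from 13.5 and 17 to 1.62 and 0.622 CPM (-3.74 ± 0.24). The pericyte genes Cspg4 (301 and 282 to 7.01 and 9.14 CPM) and Mcam (384 and 399 to 23.2 and 31 CPM) fell, and their part in the fall of Acta2 was not tested. Upstream of these genes, the cofactor Myocd fell from 3.61 and 3.63 CPM to a single count in 1 of the 3-month libraries (ratio of neonatal to 3-month level 156, 95% counting interval 27.6 to 6213) and Mrtfa (-0.49 ± 0.07) and Mrtfb (-0.40 ± 0.07) fell.

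TGF-beta, the main inducer of matrix and contractile genes in fibroblasts, is secreted in a latent form and released at the cell surface. Its ligand genes fell, Tgfb3 from 389 and 358 to 107 and 114 CPM (-1.75 ± 0.05), Tgfb2 from 250.3 and 239 to 90.2 and 100.1 CPM (-1.36 ± 0.06) and Tgfb1 by less (-0.27 ± 0.06, adjusted p = 0.0705 without the first 3-month library). In the ligand and activator list 9 of 14 tested genes fell and 4 rose. Lrrc32, which holds latent TGF-beta on the membrane, rose from 179.8 and 169.98 to 893 and 887 CPM (2.35 ± 0.04).

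Of 17 receptor and SMAD genes 7 rose (41.2%, against 28.0% of all tested genes), 1 fell and 9 did not pass. Tgfbr3, the co-receptor betaglycan, rose from 30.7 and 30.4 to 267 and 251 CPM (3.08 ± 0.05), and Tgfbr2 (0.62 ± 0.05) and Smad3 (0.55 ± 0.05) rose, while Tgfbr1 (0.10 ± 0.05), Smad2 (-0.06 ± 0.06) and Smad4 (0.09 ± 0.05) did not pass. Among known targets Ccn2 and Tgfbi (-1.84 ± 0.09) fell. Cilp, a matrix protein of adult cardiac fibroblasts that binds TGF-beta, had no neonatal count and was at least 50.2-fold higher at 3 months, at 4.49 and 3.21 CPM.

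In the related BMP pathway 15 of 23 tested genes rose and 3 fell. The target genes Id1 (0.95 ± 0.06), Id2 (0.94 ± 0.05) and Id3 (154 and 163 to 415 and 424 CPM, 1.40 ± 0.04), inhibitors of helix-loop-helix factors, rose. Of the ligand genes, Bmp2 (1.01 ± 0.20) and Gdf6 (0.50 ± 0.04) rose, Bmp4 (-1.08 ± 0.06) and Bmp3 (-1.70 ± 0.21) fell and Bmp6 did not pass (-0.02 ± 0.05).

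Wnt genes moved in both directions, with 11 of 36 tested higher (30.6%, against 28.0% of all tested genes) and 14 lower (38.9%, against 24.4%). Of the secreted antagonists, Frzb rose from 54 and 65.4 to 500.3 and 484 CPM (3.05 ± 0.06), Sfrp1 from 199 and 225 to 651 and 656 CPM (1.62 ± 0.05) and Sfrp2 by less (0.71 ± 0.09), while Dkk3 fell (-0.35 ± 0.08), Dkk2 fell (ratio of neonatal to 3-month level 137, 95% counting interval 24.2 to 5469) and Sfrp4 did not pass (0.10 ± 0.36). The nuclear factor Tcf7 fell at levels under 2 CPM (-2.17 ± 0.44), and Axin2, a common readout of the pathway, did not pass (-0.51 ± 0.37). Of the receptors, Fzd1 (1.14 ± 0.06), Fzd4 (0.97 ± 0.05) and Fzd5 (1.07 ± 0.09) rose and Fzd6 fell from 75.9 and 77.1 to 6.74 and 7.56 CPM (-3.42 ± 0.10).

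Growth factors moved in both directions, with 17 of 35 tested higher and 15 lower, against 28.0 and 24.4% of all tested genes. Neuregulin-1 (Nrg1), which drives heart muscle growth through ERBB receptors, fell from 119 and 127 to 4.99 and 5.17 CPM (-4.59 ± 0.09). Pleiotrophin (Ptn) fell from 65.7 and 66.5 to 3.5 and 3.54 CPM (-4.23 ± 0.11), together with its receptor gene Ptprz1, from 170.1 and 150.4 to 1.71 and 1.77 CPM (-6.52 ± 0.11). Of the PDGF ligands, Pdgfa (-2.97 ± 0.09), Pdgfb (-1.06 ± 0.14) and Pdgfc (-2.57 ± 0.26) fell and Pdgfd rose (0.93 ± 0.09), and the receptor gene Pdgfrb rose (0.66 ± 0.04). The EGF-type ligand Hbegf fell (-1.93 ± 0.09). Endothelial markers without Eng, left out after seeing the data, were at 18.6% of their neonatal level. The part of endothelial cells in the falls of these growth factors was not tested.

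Among the growth factors that rose was Csf1, which macrophages depend on, from 1104 and 1123 to 3204 and 3249 CPM (1.54 ± 0.03, adjusted p = 2.04e-25). Of the lymphatic growth factors, Vegfc rose from 17.3 and 21.2 to 84.8 and 91.5 CPM (2.20 ± 0.08) and Vegfd from 74.6 and 69.3 to 318 and 349.97 CPM (2.21 ± 0.06). Ccbe1 and Adamts3, which together activate the Vegfc protein, rose by 5.90 ± 0.11 and 1.78 ± 0.25, while Vegfa did not pass (0.05 ± 0.06). Fgf2 (2.11 ± 0.05), Fgf7 (2.65 ± 0.10), Kitl (2.06 ± 0.06) and Angpt1 (3.44 ± 0.18) rose as well.

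The insulin-like growth factor axis was mostly lower, with 14 of 21 tested genes lower and 5 higher. Igf2, the fetal growth factor, fell from 14.8 and 14.5 to 0.225 and 0.144 CPM (-6.26 ± 0.28), its RNA-binding regulators Igf2bp1 (-4.82 ± 0.14) and Igf2bp3 (-4.53 ± 0.14) fell, and the receptor Igf1r fell from 363 and 361 to 139 and 138 CPM (-1.38 ± 0.04). Igf1 itself did not pass (92.3 and 87.5 against 81 and 86.3 CPM). Of the 5 that rose, 4 encode binding proteins. Igfbp4 went from 91 and 101 to 779 and 797 CPM (3.04 ± 0.07), and its share of the family per kilobase from 2.25 and 2.54% to 21.8 and 20.5%. Pappa, the protease that cleaves the Igfbp4 protein, fell (-1.23 ± 0.06).

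Imprinted genes, expressed from 1 parental copy and many of them active in fetal growth, fell in 20 of 27 tested cases and rose in 4. The non-coding RNA H19 went from 212 and 220.3 CPM in neonatal to 2.43 and 2.39 CPM in 3-month libraries (-6.48 ± 0.09), Meg3 from 913 and 881 to 118 and 127 CPM (-2.87 ± 0.06), the zinc finger gene Plagl1 from 253 and 258 to 15 and 14.3 CPM (-4.12 ± 0.07) and the signalling adaptor Grb10 from 825 and 798 to 187 and 187 CPM (-2.12 ± 0.05). Of the 4 that rose, Peg10, derived from a retrotransposon, went from 156 and 179.7 to 1193 and 1209.6 CPM (2.84 ± 0.05), its neighbour Sgce rose by 0.49 ± 0.05 and Impact by 0.21 ± 0.05 (adjusted p = 0.0606 without the second neonatal library), and the other was Dcn. Reads of overlapping opposite-strand genes such as Airn and Igf2r cannot be told apart without the strand setting of the counting.

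Oncofetal genes, many of them known targets of the let-7 microRNA, fell in 11 of 14 tested cases. Hmga2 fell from 165 and 169 to 7.14 and 5.65 CPM (-4.70 ± 0.09), Hmga1 from 92.1 and 98.5 to 26 and 27.2 CPM (-1.84 ± 0.07) and Sox4 from 164 and 169.8 to 47.9 and 44 CPM (-1.86 ± 0.05). Mycn rose (0.91 ± 0.09), and Lin28b, whose protein blocks let-7, had 7 and 10 neonatal counts and none at 3 months and was too low to be tested.

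Innate defence genes gained reads. The 181 tested genes of the interferon, antigen presentation, chemokine, cytokine and complement lists went from 5095 CPM in neonatal to 22180 CPM in 3-month libraries, 9.46% of the CPM gained over all tested genes. The genes of interferon ligands had at most 1 count in any library. Of their receptors and kinases, Ifnar2 (1.24 ± 0.06), Ifngr1 (1.20 ± 0.05), Jak1 (1.09 ± 0.04) and Jak2 (1.01 ± 0.05) rose and Ifngr2 fell (-0.81 ± 0.06).

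Interferon effectors, the antiviral proteins switched on by interferon, rose in 45 of 48 tested cases and fell in 1, with a median of 3.19. Ifit1, which binds foreign RNA ends, went from 3.05 and 2.95 CPM in neonatal to 157 and 218 CPM in 3-month libraries (5.96 ± 0.16, adjusted p = 2.39e-23). Isg15, a ubiquitin-like modifier, went from 3.37 and 2.78 to 74.5 and 72.7 CPM (4.56 ± 0.10), the radical enzyme gene Rsad2 from 1.69 and 1.42 to 35.5 and 45.2 CPM (4.68 ± 0.22) and the membrane protein gene Ifitm3 from 181 and 172 to 638 and 603 CPM (1.81 ± 0.04). The 3-month libraries differ more in Ifit1 than in Isg15, but both stand above both neonatal ones. Ifit, Gbp, Oas and H2 genes have near-identical copies, between which the counting may have split reads. The upstream factors Irf7 (4.01 ± 0.09) and Stat2 (2.42 ± 0.06) and the nucleic acid sensors Zbp1 (7.95 ± 0.14), Ifih1 (2.49 ± 0.07) and Sting1 (1.46 ± 0.07) rose, while Irf3 fell (-0.31 ± 0.07).

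Because these genes moved together, their promoters are shown with the core of the interferon-stimulated response element in capitals, the letters GAAA, any 2 bases and GAAA again, on either strand. The windows run from 250 bases before to 50 bases after the start of the gene, taken from RefSeq on GRCm38.p6 and printed 5′ to 3′ on the strand of the gene. Ifit1 is at chr19:34640639-34640938 (+ strand), Rsad2 at chr12:26456403-26456702 (- strand) and Isg15 at chr4:156200769-156201068 (- strand), where 3 overlapping matches join.
Ifit1: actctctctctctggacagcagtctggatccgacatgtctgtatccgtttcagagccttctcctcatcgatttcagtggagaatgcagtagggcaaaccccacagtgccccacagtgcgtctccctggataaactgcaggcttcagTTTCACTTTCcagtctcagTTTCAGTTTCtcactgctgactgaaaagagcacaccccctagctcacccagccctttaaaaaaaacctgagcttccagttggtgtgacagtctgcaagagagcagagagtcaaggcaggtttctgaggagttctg
Rsad2: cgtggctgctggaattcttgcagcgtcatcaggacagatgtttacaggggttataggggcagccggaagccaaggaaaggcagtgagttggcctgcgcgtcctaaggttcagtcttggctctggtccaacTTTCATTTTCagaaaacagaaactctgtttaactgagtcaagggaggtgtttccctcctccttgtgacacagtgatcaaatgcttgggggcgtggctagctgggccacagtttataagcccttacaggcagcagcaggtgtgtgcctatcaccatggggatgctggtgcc
Isg15: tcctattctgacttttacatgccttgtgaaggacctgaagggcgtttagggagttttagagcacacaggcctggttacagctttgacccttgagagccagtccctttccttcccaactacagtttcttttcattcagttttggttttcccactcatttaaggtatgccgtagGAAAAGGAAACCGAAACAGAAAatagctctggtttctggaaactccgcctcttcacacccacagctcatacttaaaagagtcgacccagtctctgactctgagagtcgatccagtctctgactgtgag
The letters were in the windows of 20 of the 35 effector genes with a window (57.1%) and of 3.99% of all 27025 genes with one. Of the 20 effectors with a match 19 rose, and of the 15 without one 14 rose.

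Antigen presentation by class I molecules rose in parallel, with 22 of 25 tested genes of the list higher and none lower. H2-K1 went from 61.7 and 63.9 to 317 and 326 CPM (2.36 ± 0.06), B2m, the shared light chain, from 470.1 and 449.6 to 953 and 942 CPM (1.04 ± 0.05), and Nlrc5, the class I transactivator, rose by 2.46 ± 0.11. The class II genes H2-Ab1, H2-Eb1 and H2-Aa did not pass and stayed under 2 CPM.

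Chemokines that draw neutrophils and monocytes rose. Cxcl5 was at 1.12 and 1.93 CPM in neonatal and 1496 and 1196 CPM in 3-month libraries (9.81 ± 0.14, adjusted p = 1.34e-30), Cxcl1 at 1.78 and 2.73 against 127 and 104 CPM (5.71 ± 0.12), Ccl2 at 47.7 and 50.4 against 395 and 374 CPM (2.97 ± 0.05) and Ccl7 at 17 and 19.5 against 305 and 301 CPM (4.06 ± 0.06). Of 11 CXC chemokines 10 rose and 1 fell, and of 15 CC chemokines 10 rose and 1 fell. The homeostatic Cxcl12, which retains blood progenitors, rose from 233 and 229.8 to 923 and 916 CPM (1.99 ± 0.05), and Cx3cl1 fell (-0.98 ± 0.09). The eosinophil chemokine gene Ccl11 had no neonatal count and was at least 87.0-fold higher.

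Cytokines and acute-phase proteins rose in 21 of 28 tested cases and fell in 1. Ptx3, a soluble pattern receptor, went from 29.1 and 31.2 to 1659 and 1569.5 CPM (5.74 ± 0.05, adjusted p = 6.11e-35), Il6 from 20.5 and 24 to 134 and 120.1 CPM (2.52 ± 0.07), Lif from 27.5 and 26.6 to 111 and 121 CPM (2.10 ± 0.06) and the alarmin Il33 from 0.844 and 0.682 to 33 and 34.2 CPM (5.43 ± 0.17). Tnf rose but stayed under 1 CPM in each library (ratio of 3-month to neonatal level 7.82, 95% counting interval 2.40 to 40.4, adjusted p = 0.0577 without the second neonatal library). Cytokine receptor genes rose too, with Il1r1 at 1.65 ± 0.04, Il6st at 1.36 ± 0.04 and Il4ra at 2.29 ± 0.05, and 16 of 22 receptor genes were higher. Of 18 tested NF-kB genes that are on no marker list of other cells, 14 rose and 1 fell. The NF-kB subunit gene Rela did not pass (0.06 ± 0.06), Relb (1.16 ± 0.11) and the co-activator Bcl3 (2.72 ± 0.13) rose, and the inhibitor Tnfaip3 fell (-0.92 ± 0.12).

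The letters of an NF-kB site, GGGA, any base and TTTCC on either strand, were in the windows of Cxcl1, Cxcl2 and Cxcl3, 3 of the 9 CXC chemokine genes with a window, against 0.466% of all genes with one. That of Cxcl1 is shown with the match in capitals (RefSeq, GRCm38.p6, chr5:90890995-90891294, + strand).
Cxcl1: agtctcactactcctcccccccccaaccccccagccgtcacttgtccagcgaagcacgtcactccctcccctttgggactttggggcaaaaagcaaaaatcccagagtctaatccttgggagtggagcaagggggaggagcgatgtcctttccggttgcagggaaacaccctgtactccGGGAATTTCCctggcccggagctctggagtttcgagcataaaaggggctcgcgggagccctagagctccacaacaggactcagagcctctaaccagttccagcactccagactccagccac
Of 19 cytokine genes with a window 3 held the letters, and of 10 CC chemokine genes none. All 3 CXC chemokine and all 3 cytokine genes with the letters rose. So did 5 of 6 CXC chemokine, 11 of 16 cytokine and 6 of 10 CC chemokine genes without them.

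Complement genes moved in both directions, with 12 of 27 tested higher and 11 lower, against 28.0 and 24.4% of all tested genes. C3, the central component, rose from 8.34 and 10.2 to 1325 and 1339 CPM (7.18 ± 0.08, adjusted p = 1.1e-32), the protease gene C1s1 from 5.2 and 4.32 to 165 and 169.8 CPM (5.12 ± 0.10) and C4b from 0.89 and 0.909 to 174 and 164 CPM (7.55 ± 0.12). Clu, a fluid-phase inhibitor (-1.89 ± 0.08), and the protease gene Masp1 (-1.61 ± 0.10) fell. C1qa (-1.38 ± 0.12), C1qb (-1.69 ± 0.11) and C1qc (-2.07 ± 0.13) fell too. Macrophages are a main source of C1q and their markers fell, a part that was not tested.

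**Figure D5:**
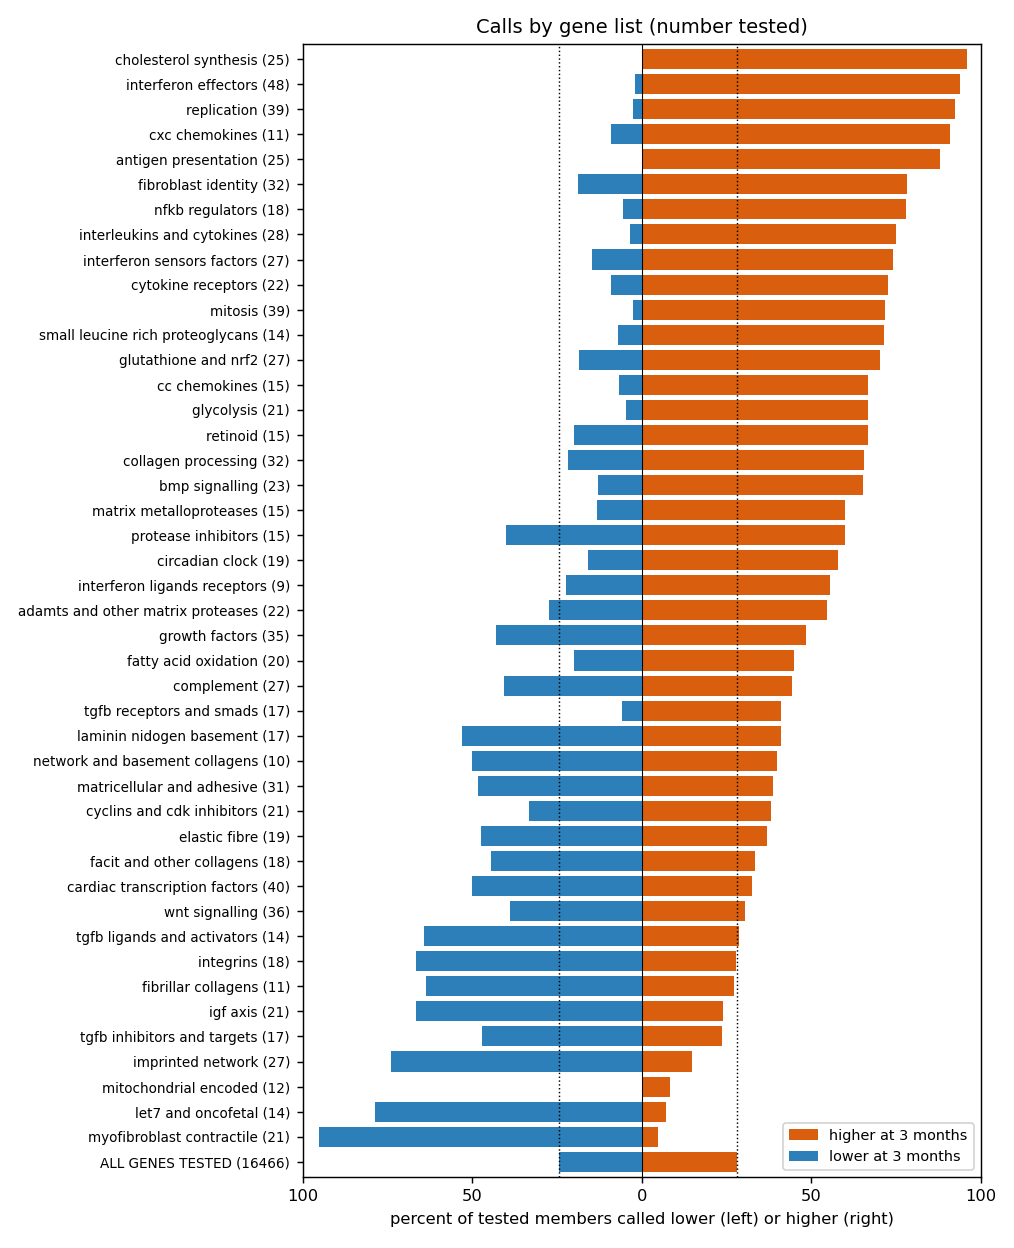
For each gene list with at least 9 tested genes, bars give the percent of tested members called lower (left) or higher (right) at 3 months, and dotted lines mark the shares among all 16466 tested genes (24.4 and 28.0%). Cholesterol, interferon, replication and antigen presentation lists reach far beyond the right line, and contractile, oncofetal and imprinted lists far beyond the left one.

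Cell cycle genes were mostly higher in adult cells. Of 39 replication genes 36 rose and 1 fell, each by less than 2-fold, and of 39 mitosis genes 28 rose and 1 fell. The helicase subunit gene Mcm5 was at 48.8 and 51.3 CPM in neonatal and 79.9 and 77.2 CPM in 3-month libraries (0.65 ± 0.07), Mcm7 at 47.8 and 52.9 against 80.2 and 80 CPM (0.67 ± 0.07), the sliding clamp gene Pcna at 75.5 and 73.6 against 120.1 and 117 CPM (0.67 ± 0.06), and the mitotic kinase gene Plk1 at 34.6 and 40 against 57.5 and 59.7 CPM (0.66 ± 0.07). The differences are small. The D-type cyclins, which answer to growth factors, fell in Ccnd1, from 209 and 211 to 61.9 and 54.7 CPM (-1.85 ± 0.07), and Ccnd2, from 761 and 742 to 337 and 331 CPM (-1.17 ± 0.04), whereas Ccnd3 (0.17 ± 0.05, adjusted p = 0.0851 without the first and 0.0775 without the second neonatal library), Ccne1 (0.65 ± 0.12) and Ccne2 (0.83 ± 0.09) rose. Of the inhibitors, Cdkn1c (-2.29 ± 0.20) and Cdkn1a (469 and 441 to 350.3 and 347 CPM, -0.38 ± 0.04) fell and Cdkn2c (1.15 ± 0.08) rose. Cdkn2a, whose products enforce senescence, was low at both ages, at 0.797 and 0.909 CPM in neonatal and 1.26 and 2.35 CPM in 3-month libraries, and rose (1.07 ± 0.35), with an adjusted p of 0.294 without the second 3-month library and 0.0949 without the first neonatal one.

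The letters TTTNGCGC of an E2F site (N any base, either strand), bound by the factors that switch on S-phase genes, were in the windows of 11 of 30 replication genes (36.7%), 1 of 32 mitosis genes and 1.57% of all genes with a window. The window of Mcm5 (RefSeq, GRCm38.p6, chr8:75109259-75109558, + strand) holds 2 overlapping matches on opposite strands, in capitals, and that of Mcm7 (chr5:138171834-138172133, - strand) holds 1. Mcm7 has 2 windows, and the window shown is the first with a match.
Mcm5: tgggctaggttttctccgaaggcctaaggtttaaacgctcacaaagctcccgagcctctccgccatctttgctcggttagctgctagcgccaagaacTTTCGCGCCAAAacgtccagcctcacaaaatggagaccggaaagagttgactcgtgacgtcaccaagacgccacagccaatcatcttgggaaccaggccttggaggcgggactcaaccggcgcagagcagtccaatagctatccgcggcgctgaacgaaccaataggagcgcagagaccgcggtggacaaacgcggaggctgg
Mcm7: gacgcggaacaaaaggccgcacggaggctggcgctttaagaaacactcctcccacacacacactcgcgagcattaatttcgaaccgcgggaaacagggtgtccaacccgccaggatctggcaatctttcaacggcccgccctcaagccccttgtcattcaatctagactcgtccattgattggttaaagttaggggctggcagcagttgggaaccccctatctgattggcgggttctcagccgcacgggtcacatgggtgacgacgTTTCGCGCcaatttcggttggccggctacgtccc
All 11 replication genes with a match rose, and so did 16 of the 19 without one. A match is a description of the letters and not a site of binding.

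Sterol synthesis genes were mostly higher, with 24 of 25 tested genes higher and 1 that did not pass, at a median of 0.98. Genes from early to late steps were included, with Hmgcs1 at 79.9 and 79.1 CPM in neonatal and 167 and 179 CPM in 3-month libraries (1.12 ± 0.06), Idi1 at 12.7 and 13.6 against 44.8 and 46.3 CPM (1.79 ± 0.08), Sqle (0.98 ± 0.06) and Cyp51 (1.34 ± 0.05). Of 21 glycolysis genes 14 rose and 1 fell, with rises in Hk2 (0.95 ± 0.06), Pkm (0.75 ± 0.04) and Ldha (0.70 ± 0.05). Mitochondrially encoded genes summed to 15829 and 16346 CPM in neonatal and 16284 and 16740 CPM in 3-month libraries, and 1 of 12 tested passed (mt-Nd1, 0.13 ± 0.04, adjusted p = 0.194 without the first neonatal library).

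Transcription factors of heart and mesenchyme fell in 20 of 40 tested cases and rose in 13, against 24.4 and 28.0% of all tested genes. Those of the heart fields that fibroblasts express well fell moderately, Gata4 from 169.5 and 164 to 101 and 104 CPM (-0.70 ± 0.05), Gata6 (-0.59 ± 0.05), Hand2 (-0.41 ± 0.07) and Tbx20 from 1335 and 1293 to 1099 and 1056 CPM (-0.29 ± 0.04). Cardiomyocyte factors were near the limit of detection at both ages, with Nkx2-5 at 0.75 and 0.682 against 0.359 and 0.287 CPM, which did not pass. Factors of mesenchyme that rose included Prrx1, from 175 and 186 to 444 and 437 CPM (1.29 ± 0.04), Zeb2 (1.06 ± 0.05), Snai1 (1.05 ± 0.06) and Meox2 from 1.17 and 1.48 to 13.8 and 14.8 CPM (3.44 ± 0.17), while Scx (-3.00 ± 0.22) and Foxc2 (-1.95 ± 0.09) fell and Runx1 (0.01 ± 0.07) and Zeb1 (-0.09 ± 0.05) did not pass. Wt1, an epicardial factor, fell with the mesothelial markers, from 8.76 and 8.01 to 0.674 and 0.239 CPM (-4.16 ± 0.32). Mef2c, one of the factors used to convert fibroblasts, fell from 49.2 and 49 to 26.5 and 29.2 CPM (-0.82 ± 0.07) while cardiomyocyte and endothelial markers fell too, and their part was not tested.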

How the data were processed

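RNA was sequenced from 8 libraries of wild-type cardiac fibroblasts at 4 ages, 2 per age. Reads were trimmed with Trimmomatic 0.36 and counted with featureCounts of Subread 1.5.1 on mm10, per the submitters' processing notes, with the aligner, annotation release and counting strand not given in the sources used here. GEO labels name polyA RNA and their protocol an rRNA depletion, so the selection is uncertain. The authors deposited raw read counts and FPKM values per gene with the exonic length of each gene. The deposited FPKM equalled count per length and total within 0.005 and entered no test. Library totals were 17336346 to 22311330 counts in the libraries compared. Of 56691 genes, 25966 had no count in the table, and 2639 had no symbol (0.0728 to 0.205% of counts).

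Counts were tested with edgeR 4.0.16 (limma 3.58.1, R 4.3.3), using TMM factors, the filterByExpr filter (minimum count 10, minimum total 15), all 8 libraries with 1 coefficient per age (4 residual degrees of freedom) and the quasi-likelihood test, with Benjamini-Hochberg adjustment over 16466 genes. SE is the log2 fold change divided by the root of its F value. A fold against a group with no count uses a floor of 3 counts over its 2 libraries, and ratios with 1 to 3 counts have 95% counting intervals, which cover counting error only. Levels per kilobase use the deposited length. Genes named were the 10 with the largest gain, loss, rise and fall, plus members of the gene lists, of which some are not reported here. The members and lists were chosen with earlier results of these data known. Alternatives included DESeq2 1.42.0, limma-voom, other scalings and filters, and leaving out each library.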

Additional observations from a re-analysis of the deposited data

How the results depend on the processing

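Called genes numbered 6219 to 8733 over the alternatives, against 8621. With a filter of 10 CPM in 2 libraries the genes with at least a 2-fold change were 1351 (736 higher, 615 lower), and with glmTreat against a 2-fold change they were 2048, against 3101. DESeq2 called 7022 genes, limma-voom 8623 and the fit of the 4 libraries alone 8527. Leaving out 1 library at a time gave 7298 to 7611 calls, 2890 to 3011 with at least a 2-fold change, and 6911 to 7215 outside the marker lists and sex chromosomes. The fit with a replicate block called 8479 genes, and the deviations of neonatal and 3-month libraries with the same number did not correlate (-0.0127). With 2 libraries an age this cannot decide if the numbers pair the libraries. The log2 ratio of the summed cardiomyocyte markers was -2.66 with upper-quartile scaling and -2.6 with DESeq2 size factors, against -2.58, and that of the mesothelial markers 0.894 with DESeq2 size factors and 0.832 with upper-quartile scaling, against 0.914. Without the members that fibroblasts also express, an alternative chosen after seeing the data, that ratio was -4.59 for cardiomyocyte, -2.43 for endothelial, -3.29 for mesothelial and -2.92 for endocardial and lymphatic markers; the last 2 were above 0 with all members. Upper-quartile scaling turned the list medians of cyclins (-0.0376), mitochondrial genes (-0.00438) and Wnt genes (-0.0188) below 0. The cause was not tested. Fbn1 and Eng did not pass in the report but did with DESeq2 (adjusted p 0.0268 and 0.038) and limma-voom (0.0126 and 0.0436). They also passed in edgeR with DESeq2 size factors, upper-quartile scaling, no filter on low counts, the stricter filter and the 4 libraries alone. Col14a1, Lox, Mmp2, Mmp14, Igf1 and Zeb1 did not pass in the report but did with upper-quartile scaling, and Bgn did with limma-voom. Each group has 2 libraries, which limits the precision of every value.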

Other observations

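Antioxidant and detoxifying genes rose in 19 of 27 tested cases and fell in 5. The extracellular superoxide dismutase gene Sod3 was at 19.6 and 20.3 CPM in neonatal and 197 and 212 CPM in 3-month libraries (3.36 ± 0.07), the mitochondrial Sod2 at 40.2 and 35.2 against 159 and 152 CPM (2.04 ± 0.06) and the glutathione transferase gene Gsta3 at 1.36 and 1.31 against 60.6 and 64.3 CPM (5.54 ± 0.11). Each of these 3 stood higher in both 3-month libraries. Of the genes controlled by NRF2, Hmox1 (1.18 ± 0.05), Srxn1 (1.10 ± 0.06), Gclm (0.72 ± 0.06), Gclc (0.44 ± 0.06) and Txnrd1 (0.26 ± 0.04) rose. Nqo1 (-0.61 ± 0.11) and the cystine transporter gene Slc7a11 (-1.02 ± 0.14) fell. In retinoid metabolism, the retinoic acid synthesising Aldh1a2 went from 59.8 and 61.5 to 708 and 711 CPM (3.55 ± 0.05) and Aldh1a1 from 124 and 126 to 532 and 534 CPM (2.09 ± 0.04), and the reductase gene Dhrs3 (1.35 ± 0.06) and the receptor gene Rarb (1.48 ± 0.18) rose, while Rara fell (-0.91 ± 0.08). Clock output genes rose in Hlf, from 0.797 and 0.738 to 26.5 and 18.8 CPM (4.87 ± 0.25), and Nr1d1 (0.67 ± 0.07), and the core activator Arntl fell (-0.52 ± 0.09). The time of day of harvest is not given.

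Several of the largest differences lay in genes on none of the lists. The phosphatase gene Alpl (0.937 and 0.909 to 136 and 129.8 CPM), the secreted carboxypeptidase-like Cpxm1 (5.39 and 6.25 to 479 and 447 CPM) and the matrix gene Abi3bp (1.92 and 2.21 to 133 and 125 CPM) rose by 7.16, 6.32 and 5.97. The collagen-binding Aebp1 (438 and 437 to 1634 and 1627 CPM) and the endocytic receptor gene Lrp1 (1792 and 1794 to 3727 and 3769 CPM) were among the largest gains in reads. Falls included the protease inhibitor gene Ctla2a (277 and 264 to 3.01 and 5.07 CPM), the ectonucleotidase gene Entpd1 (126 and 117 to 4.58 and 4.55 CPM), both known from endothelial or blood cells, the basement membrane gene Tinagl1 (329 and 322 to 12.7 and 14.5 CPM), the matrix gene Adamtsl2 (459 and 440.2 to 20.6 and 22.3 CPM) and the hyaluronan-degrading Cemip (2416 and 2369.9 to 1089 and 1121 CPM). All of these passed edgeR's quasi-likelihood test.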
